A study of Homo sapiens with 39 samples.

Results

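WM115 clone 4.1 is a clone of the human melanoma line WM115 from which a regulatory region near SOX10, named R4, was deleted (genotype label R4_del). Its 3 RNA-seq libraries were compared with the 4 libraries of WM115 wild-type cells (WT), which makes 7 of the 39 libraries of the series. A different clone with the same deletion label, clone 4.2 (3 libraries), was used to test where clone 4.1 departs from it. The comparison asks which genes differ between a line that carries R4 and a clone that lost it. The 3 libraries of clone 4.1 repeat 1 clone and the labels name no separate cultures. The p-values rest on the spread between libraries of the same group, pooled over all 21 WM115 libraries and not taken from clone 4.1 and WT alone. That spread may therefore be technical, and the deletion cannot be told apart from other properties of the clone. The WT columns carry the name wt5, and the labels do not say whether these cells are a clone or the parental pool.

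SOX10 is a transcription factor of the neural crest, the embryonic source of melanocytes and of the Schwann cells that sheathe nerves. In melanocytes SOX10 switches on MITF, whose product binds the M-box, an E-box with flanking bases found before many pigment genes. Melanoma lines low in MITF are known for inflammatory, matrix and nerve-sheath transcripts, and many such lines secrete cytokines whose genes are driven by NF-kB.

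Values are TPM per gene, a unit corrected for gene length and library total, analysed as log2(TPM + 1). A difference on that scale understates the change of a gene with a low level. The files hold no counts. Depth is therefore unknown, and a gene without signal is described as listed at 0. A gene was tested when at least 3 of the 21 WM115 libraries had a TPM of at least 1 (16997 genes). It was called when limma's Benjamini-Hochberg adjusted p was under 0.05 and the log2 difference was at least 1 in size. Of the tested genes, 1286 (7.57%) were called, 544 higher in clone 4.1 (3.2%) and 742 lower (4.37%). The libraries of the 2 groups did not overlap for 1224 of the called genes, against 36.9% of all tested genes. The median difference of all tested genes was -0.10. With that median brought near 0 by median-of-ratios scaling, 55.6% of the calls were higher, against 42.3% here. In the direct comparison with clone 4.2, 447 genes (2.63%) were called, 310 higher in clone 4.1 (1.82%) and 137 lower (0.806%). Of all 1286 genes, 226 were called in both comparisons.

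Genes with a TPM of at least 1 numbered 14878 to 15382 in WT and 14583 to 15092 in clone 4.1. The mitochondrial genome accounted for 13.7% to 15.6% of TPM in WT and for 5.24% to 10.8% in clone 4.1, while cytosolic ribosomal proteins took 12.0% to 13.6% and 18.1% to 18.4%. With the 21 libraries split at a mitochondrial share of 7.5% and the split as a term in the model 923 genes were called, and 826 of these were among the 1286. WT library 3 stood apart from the other WT libraries in several groups below, with DCT at 215 TPM against 681 to 1685 and THBS1 at 243 TPM against 27 to 41.5. WT library 4 was the lowest for several acute phase genes, with SAA1 at 53.6 TPM against 246 to 737. Markers of other cell types were checked in both groups. The keratinocyte genes KRT5, DSC3, DSG3, IVL and SPRR1B were listed at 0 in all 7 libraries, and the 10 keratinocyte markers summed to 40.5 to 56.5 TPM in WT and 57.9 to 72.9 TPM in clone 4.1, with 1 of 4 tested higher. The lymphocyte genes CD3D and MS4A1 were listed at 0 in all 7 libraries, and 9 leukocyte markers summed to 336 to 445 TPM and 383 to 470 TPM. Nearly all of that sum was CD68, a lysosomal protein (336 to 445 TPM and 381 to 469 TPM), and the other 8 were under 1 TPM. Of 10 fibroblast markers DPT was listed at 0, and the sums were 490 to 721 TPM in WT and 593 to 680 TPM in clone 4.1, with 2 of 8 tested higher and 1 lower. The 8 endothelial markers summed to 2.96 to 7.21 TPM and 5.68 to 7.6 TPM, with 1 of 3 tested higher. The part of other cell types in the results was not tested. In bulk libraries fewer cells of a type and less RNA per cell cannot be told apart.

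SOX10 itself (chromosome 22, 37970686 to 37987422, GRCh38) was not called. Its level was 553, 540, 485 and 449 TPM in WT libraries 1 to 4 and 465, 360 and 390 TPM in clone 4.1, so the groups overlapped, and the difference was -0.33 (SE 0.70; limma adjusted p = 0.773). This SE also takes in the spread of SOX10 within the other WM115 groups. MITF, the melanocyte regulator, was 149, 139, 60.5 and 164 TPM in WT and 11.2, 9.25 and 11.1 TPM in clone 4.1. All 3 clone libraries lay below WT, by -3.40 (SE 0.61; limma adjusted p = 0.000793). The MITF level in clone 4.2 (15.2, 15.8 and 18.3 TPM) was not distinguishable from clone 4.1 (difference -0.60, adjusted p = 0.657).

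Among 19 tested genes of melanin synthesis and the melanosome, 12 fell and 0 rose, with a median of -1.5 against -0.10 for all tested genes. The 3 melanin enzymes all fell. DCT went from 785, 681, 215 and 1685 TPM in WT to 7.08, 2.37 and 13.7 TPM, TYRP1 from 57.6, 36.4, 10.6 and 128 TPM to 0.841, 0.672 and 2.09 TPM, and TYR from 6.48, 4.11, 1.17 and 23.6 TPM to 0 in each clone library. PMEL, the fibril protein of the melanosome, and MLANA fell by 2.99 and 4.13 on the log2 scale, and RAB32 and MYO5A, which move melanosomes, by 1.46 and 1.5. The MYO5A call was lost without WT library 4 (-1.24, adjusted p = 0.0584) and without clone 4.1 library 3 (-1.33, adjusted p = 0.0638). GPNMB, a melanosomal glycoprotein, was 800, 802, 415 and 915 TPM in WT and 82.4, 51.3 and 102 TPM in clone 4.1 (-3.2, SE 0.42; adjusted p = 4.91e-05). Outside pigment, 6 of 20 melanocytic genes fell and 0 rose. CAPN3, a calcium-dependent protease, went from 369, 312, 60.5 and 490 TPM to 1.09, 0.474 and 2.64 TPM (-6.76, adjusted p = 0.000138), and PPARGC1A, a coactivator of mitochondrial genes, fell by 3.03 on the log2 scale. In these genes WT library 3 was the lowest WT library and still above the clone. MC1R, the receptor for melanocyte-stimulating hormone, and TPCN2, a melanosome channel, did not pass the test (adjusted p = 0.502 and 0.97). Between the 2 clones, 1 of the 19 genes passed it. This was GPR143, a melanosomal receptor, at 0.292, 0.267 and 0.208 TPM in clone 4.1 and 2.26, 1.26 and 6.08 TPM in clone 4.2 (limma adjusted p = 0.0018). The stretches before the 3 enzyme genes are shown for the letters of the M-box. Each line is the 150 bases before a RefSeq start (GRCh38.p14), read 5′ to 3′ on the gene's strand. The stretches are chr11:89177725-89177874 (plus strand) for TYR, chr9:12693235-12693384 (plus strand) for TYRP1 and chr13:94479683-94479832 (minus strand) for DCT. Capitals mark TCATGTG, the core of the M-box.
TYR: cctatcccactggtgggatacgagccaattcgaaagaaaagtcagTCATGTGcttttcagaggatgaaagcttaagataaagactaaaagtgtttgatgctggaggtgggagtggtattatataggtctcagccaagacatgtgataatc
TYRP1: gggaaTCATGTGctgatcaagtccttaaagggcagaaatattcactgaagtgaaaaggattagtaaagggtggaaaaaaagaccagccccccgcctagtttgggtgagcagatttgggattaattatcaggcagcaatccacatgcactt
DCT: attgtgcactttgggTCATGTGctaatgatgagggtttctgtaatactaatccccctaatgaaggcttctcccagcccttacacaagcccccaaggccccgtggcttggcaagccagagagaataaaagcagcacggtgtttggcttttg
The motif began 105, 145 and 135 bases before the start. TCATGTG was searched on both strands of the 250 bases before each start. It was found for 5 of the 10 called pigment genes that the RefSeq table holds (DCT, GPNMB, SLC24A5, TYR and TYRP1), against 3.11% of the 27305 genes in that table (2.52% of 35116 starts), a gene counting where any of its starts has a match. It contains the E-box letters CATGTG. The list was chosen for pigment genes, before many of which the M-box is known, and the share among its members not called was not counted. A match therefore describes the letters only and does not bear on which members fell.

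The acute phase and NF-kB list holds secreted defence proteins and the transcription factors and inhibitors that govern them. Of 39 tested members 17 rose and 0 fell, with a median of 1.0, and their summed level went from a mean of 2790 TPM in WT to 10600 TPM in clone 4.1. Those that rose were 14 of 23 secreted and 3 of 16 intracellular or membrane members, and a difference between these was not tested. Directly against clone 4.2, 16 of the 39 were higher and 0 lower, so this group also sets clone 4.1 apart from the other clone with the deletion. Some of these calls were lost with 1 library left out. NFKBIA and SOD2 lost theirs without clone 4.1 library 1 or 3 or clone 4.2 library 1 or 2. RELB lost its call without clone 4.1 library 1 or 3 or clone 4.2 library 2, and LCN2 without clone 4.2 library 2.

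SAA1 and SAA2 encode serum amyloid A, an acute phase lipoprotein component, and lie beside each other on chromosome 11. SAA1 was 737, 539, 246 and 53.6 TPM in WT, 4935, 2246 and 3477 TPM in clone 4.1 and 83.7, 20.2 and 149 TPM in clone 4.2. Every clone 4.1 library was above every other of these libraries, by 3.64 over WT (SE 0.86; limma adjusted p = 0.0054) and by 5.71 over clone 4.2 (SE 0.92; adjusted p = 0.00063). The 2 genes are near-identical, so how reads were divided between them is uncertain, and SAA2 moved by 3.89 over WT. SAA4, the constitutive form, was at most 0.556 TPM in WT, 9.9, 4.93 and 8.98 TPM in clone 4.1 and listed at 0 in clone 4.2. LCN2, lipocalin 2, an iron-siderophore binder, was 404, 361, 237 and 39.1 TPM in WT and 1308, 2022 and 1158 TPM in clone 4.1. Its difference of 2.91 was just past the threshold (SE 1.04; adjusted p = 0.0495). It was lost without any 1 of the 7 libraries, with differences of 2.15 (without WT library 4) to 3.27 (without WT library 1).

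The interleukin 1 genes rose furthest among cytokines. IL1A was 2, 1.2, 0.78 and 1.23 TPM in WT, 48.2, 28.1 and 48.5 TPM in clone 4.1 and 0.508, 0.442 and 0.831 TPM in clone 4.2. It rose by 4.19 over WT (SE 0.30; limma adjusted p = 2.08e-08), and clone 4.2 was at the WT level or below it. IL1B was 73.3, 73.6, 79.6 and 14.7 TPM in WT and 1268, 1050 and 934 TPM in clone 4.1, a rise of 4.39 (SE 0.84; adjusted p = 0.00131). Clone 4.2 lay between them (215, 83 and 359 TPM), and its difference from clone 4.1 was not called (2.53, adjusted p = 0.104). PTGS2, cyclooxygenase 2, which makes prostaglandin precursors, was 5.49, 9.63, 5.59 and 2.25 TPM in WT, 312, 236 and 245 TPM in clone 4.1 and 67.3, 38.7 and 34.8 TPM in clone 4.2. These 3 groups did not overlap, and PTGS2 rose by 5.41 over WT (SE 0.35; adjusted p = 4.8e-09) and by 2.52 over clone 4.2 (adjusted p = 0.000282).

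Chemokines and complement followed. CXCL8, a neutrophil attractant, was 93.4, 50.2, 32.9 and 33.2 TPM in WT and 651, 313 and 708 TPM in clone 4.1 (difference 3.43, SE 0.93; limma adjusted p = 0.013). Without clone 4.1 library 1 that adjusted p was 0.0515. CCL2, a monocyte attractant, was 46, 15.7, 7.66 and 10.5 TPM in WT, 323, 111 and 336 TPM in clone 4.1 and 1.42, 2.17 and 18.4 TPM in clone 4.2. It was higher by 3.78 than in WT (adjusted p = 0.00052) and by 5.44 than in clone 4.2 (adjusted p = 5.88e-05). C3, the central complement protein, was 57.4, 35.7, 17.5 and 4.99 TPM in WT and 362, 267 and 278 TPM in clone 4.1 (difference 3.77, adjusted p = 0.000741). IL32, IL11, CCL20, IL6 and PTX3, all secreted, rose by 3.43, 2.70, 2.63, 2.28 and 1.60. The IL6 call was lost without any 1 of the 7 libraries, with differences of 2.04 to 2.46.

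The inhibitor NFKBIA, itself induced by NF-kB, was 50, 44, 14.7 and 25.4 TPM in WT and 105, 53.6 and 118 TPM in clone 4.1. It rose by 1.5 (SE 0.41; limma adjusted p = 0.0135), and BIRC3, an inhibitor of apoptosis, by 1.62 (adjusted p = 0.00652). Without clone 4.1 library 1 or 3 the NFKBIA call was lost (adjusted p = 0.0615 and 0.0597). The NF-kB subunit genes NFKB2 and RELB had differences of 0.65 and 0.87, under the minimum of 1, and ICAM1, an adhesion receptor, 0.91. IL24 (-1.06, adjusted p = 0.41), CXCL1 (1.43, adjusted p = 0.0803) and SOD2 (0.37, adjusted p = 0.647) were not called. The stretches before 3 members that rose are shown for the letters of a kappa-B motif. They are the 150 bases before a RefSeq start (GRCh38.p14), chr14:35404750-35404899 (minus strand) for NFKBIA, chr7:22727050-22727199 (plus strand) for IL6 and chr3:157436700-157436849 (plus strand) for PTX3. Capitals mark a kappa-B-type motif (GGG, any 2 bases, TT, any base and CC), searched on either strand.
NFKBIA: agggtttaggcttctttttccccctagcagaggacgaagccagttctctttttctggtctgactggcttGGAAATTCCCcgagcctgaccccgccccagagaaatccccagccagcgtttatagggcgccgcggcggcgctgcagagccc
IL6: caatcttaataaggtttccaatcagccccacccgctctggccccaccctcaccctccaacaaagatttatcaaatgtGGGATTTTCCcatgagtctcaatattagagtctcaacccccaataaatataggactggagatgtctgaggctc
PTX3: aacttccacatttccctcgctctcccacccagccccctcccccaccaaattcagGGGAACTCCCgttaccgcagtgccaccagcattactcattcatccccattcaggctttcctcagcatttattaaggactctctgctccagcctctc
In the 250 bases before each start, on both strands, this motif was found for 6 of the 13 called members in the RefSeq table (BIRC3, CCL20, IL32, IL6, NFKBIA and PTX3), against 6.14% of the 27305 genes (5.07% of 35116 starts). The list was chosen for its link to NF-kB, and the share among its members not called was not counted. The match therefore describes the letters only and does not bear on which members rose.

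**Figure D1:**
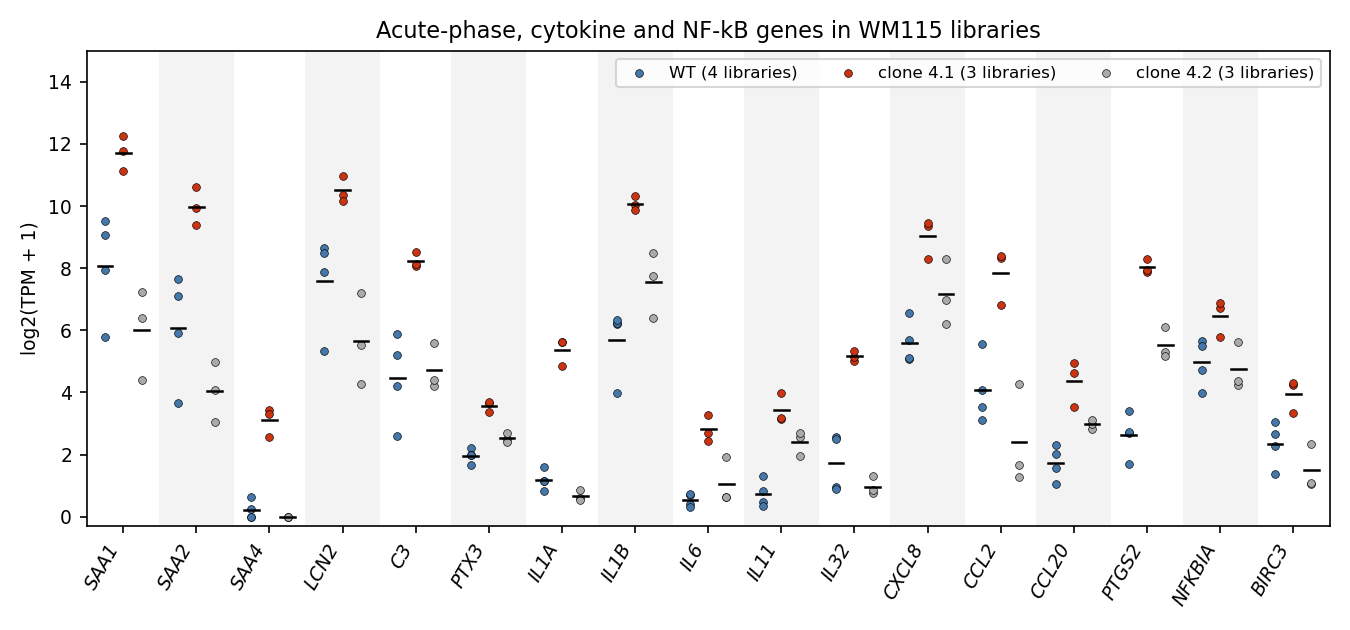
Levels of 17 acute phase, cytokine and NF-kB genes (horizontal axis) as log2(TPM + 1) (vertical axis) in WT (4 libraries), clone 4.1 (3) and clone 4.2 (3). Each point is a library and each bar the mean of a group. For SAA1 the clone 4.1 libraries (2246 to 4935 TPM) sit above WT (53.6 to 737 TPM) and clone 4.2 (20.2 to 149 TPM).

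Of 15 tested keratins, the intermediate filaments of epithelia, 7 rose and 0 fell, with a median of 1.5. KRT23 was 0.036, 0.071, 0.753 and 0.102 TPM in WT, 83.9, 77.2 and 48.6 TPM in clone 4.1 and 3.29, 0.135 and 3.13 TPM in clone 4.2. It was the keratin with the largest difference, 5.83 over WT (SE 0.41; limma adjusted p = 1.4e-08) and 4.67 over clone 4.2 (adjusted p = 1.31e-06). KRT7, a simple-epithelium keratin, was 3.57, 1, 2.5 and 0.416 TPM in WT and 21.6, 47 and 18.8 TPM in clone 4.1 (difference 3.42, adjusted p = 0.000122). KRT15, KRT17, KRT6B, KRT79 and KRT14 rose by 2.16, 2.0, 1.93, 1.88 and 1.5. Of the 15 keratins 4 were higher than in clone 4.2, where KRT7 (2.23, adjusted p = 0.0151) was not called without clone 4.1 library 2 (adjusted p = 0.0748) or clone 4.2 library 2 (0.0885). The simple-epithelium pair KRT8 and KRT18 differed by 0.47 and 0.71 and were not called. KRT5, the partner of KRT14 in basal keratinocytes, was listed at 0, as were the desmosomal DSG3 and DSC3.

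Serpins are mostly serine protease inhibitors, some of which act on the plasminogen system. Of 17 tested serpins and plasminogen genes 7 rose and 1 fell (median 0.68), and of the 14 serpins among them 6 rose, 1 fell and 7 were not called. SERPINB2, an inhibitor of plasminogen activators, was 1.87, 2.04, 2.98 and 1.66 TPM in WT, 159, 153 and 91.8 TPM in clone 4.1 and 3.6, 2.81 and 7.57 TPM in clone 4.2. Clone 4.1 stood above both, by 5.41 over WT (SE 0.40; limma adjusted p = 3.36e-08) and by 4.63 over clone 4.2 (adjusted p = 1.31e-06). SERPIND1, heparin cofactor II, and PLAUR, the urokinase receptor, rose by 3.14 and 1.43. PLAUR was not called without WT library 1 or 4 or without clone 4.1 library 1 or 2 (differences of 1.21 to 1.44). SERPINF1, which encodes the anti-angiogenic factor PEDF, fell, from 47.9, 31.6, 20.7 and 90.5 TPM to 3.52, 4.11 and 7.76 TPM (difference -2.84, adjusted p = 0.00487).

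Genes of the extracellular matrix changed in both directions. In the matricellular and crosslinking list, 9 of 30 tested members rose and 3 fell (median 0.56), and the summed level went from a mean of 6260 TPM to 14900 TPM. FN1, fibronectin, was 798, 1108, 1730 and 969 TPM in WT and 4467, 6468 and 3018 TPM in clone 4.1, a rise of 2.01 (SE 0.39; limma adjusted p = 0.00145). SPARC, a collagen-binding glycoprotein, was 3297, 2975, 2833 and 2782 TPM in WT and 6705, 6453 and 6773 TPM in clone 4.1, a rise of 1.16 (SE 0.21; adjusted p = 0.000933). In both cases all clone libraries exceeded all WT libraries. FBLN1, fibulin 1, was 48.7, 35.7, 24.3 and 18.9 TPM in WT and 346, 344 and 224 TPM in clone 4.1 (3.28, adjusted p = 6.13e-05). THBS1, thrombospondin 1, was 32.2, 41.5, 243 and 27 TPM in WT and 459, 806 and 287 TPM in clone 4.1 (3.09, adjusted p = 0.0126), and WT library 3 lay close to the lowest clone library. Without clone 4.1 library 2 THBS1 was not called (2.71, adjusted p = 0.064). The lysyl oxidase LOXL4 rose by 1.78. SPP1, osteopontin, fell from 624, 546, 403 and 896 TPM to 8.62, 29.2 and 24.8 TPM (-4.92, SE 0.70; adjusted p = 9.92e-05). CCN5 and CCN3, matricellular proteins of the CCN family, fell by 2.36 and 1.47 on the log2 scale, and CCN3 overlapped through WT library 3. CCN5 was not called without clone 4.1 library 1 (adjusted p = 0.0699), nor CCN3 without clone 4.1 library 2 (adjusted p = 0.0813). Against clone 4.2 limma called 0 matricellular members, with 3 at an unadjusted p under 0.05.

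Of 30 tested collagen genes 7 rose and 1 fell (median 0.48). COL6A1 and COL6A2, neighbours on chromosome 21 that encode chains of type VI collagen, rose by 1.42 and 1.61. COL13A1, COL12A1 and COL9A2 rose by 1.99, 1.40 and 1.40, and COL7A1, the anchoring fibril collagen, fell by 1.08 on the log2 scale. Several collagen calls were lost with 1 library left out. The count of collagens that rose was 3 to 5 without 1 library, lowest without clone 4.1 library 2. COL6A2 lost its call without any 1 of the 7, with differences of 1.40 to 1.72. COL6A1 kept it only without WT library 1, COL12A1 lost it without clone 4.1 library 2, COL13A1 without WT library 1 or 4 or clone 4.1 library 2, and COL7A1 without WT library 2 or 4 or clone 4.1 library 1 or 2. COL5A2 was 50.5, 38, 36.5 and 43.9 TPM in WT, 85.8, 125 and 98.9 TPM in clone 4.1 and 44.1, 30.8 and 49.8 TPM in clone 4.2. It rose over WT by 1.26 (limma adjusted p = 0.000735) and was the collagen called against clone 4.2 (1.3, adjusted p = 0.00228). Of 27 tested proteoglycan genes 5 rose and 1 fell (median 0.34). ACAN, aggrecan, the large proteoglycan of cartilage, was 0.749, 0.679, 0.458 and 0.195 TPM in WT, 29.7, 16.4 and 21.1 TPM in clone 4.1 and 2.13, 3 and 1.77 TPM in clone 4.2. It rose by 3.92 over WT (adjusted p = 4.1e-05) and by 2.80 over clone 4.2 (adjusted p = 0.00341). FMOD, fibromodulin, and DCN, decorin, small collagen-binding proteoglycans, rose by 1.60 and 1.74 from levels under 1 TPM. Without WT library 4 or clone 4.1 library 1 the proteoglycans that rose numbered 3.

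Of 18 tested integrins 5 rose and 1 fell (median 0.17). ITGA11 and ITGA1, alpha chains of collagen receptors, rose by 1.92 and 1.42, and ITGB4, the beta chain of the hemidesmosome integrin, by 2.32. ITGAM, an integrin of myeloid cells, went from 3.43, 1.74, 0.189 and 11 TPM to at most 0.032 TPM (limma adjusted p = 0.032). That call was lost without WT library 1 or 4 or any clone 4.1 library (differences of -1.83 to -1.25), and without clone 4.1 library 2 only 3 integrins rose. Among the matrix proteases, MMP1, an interstitial collagenase, was 2.18, 2.97, 4.88 and 2.65 TPM in WT, 63.5, 91.1 and 33.7 TPM in clone 4.1 and 0.708, 0.504 and 0.708 TPM in clone 4.2. Clone 4.1 exceeded WT by 3.86 (adjusted p = 0.0002) and clone 4.2 by 5.17 (adjusted p = 3.57e-05). The inhibitors of these enzymes moved in opposite directions, TIMP1 by 1.18 and TIMP2 by -1.72.

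**Figure D2:**
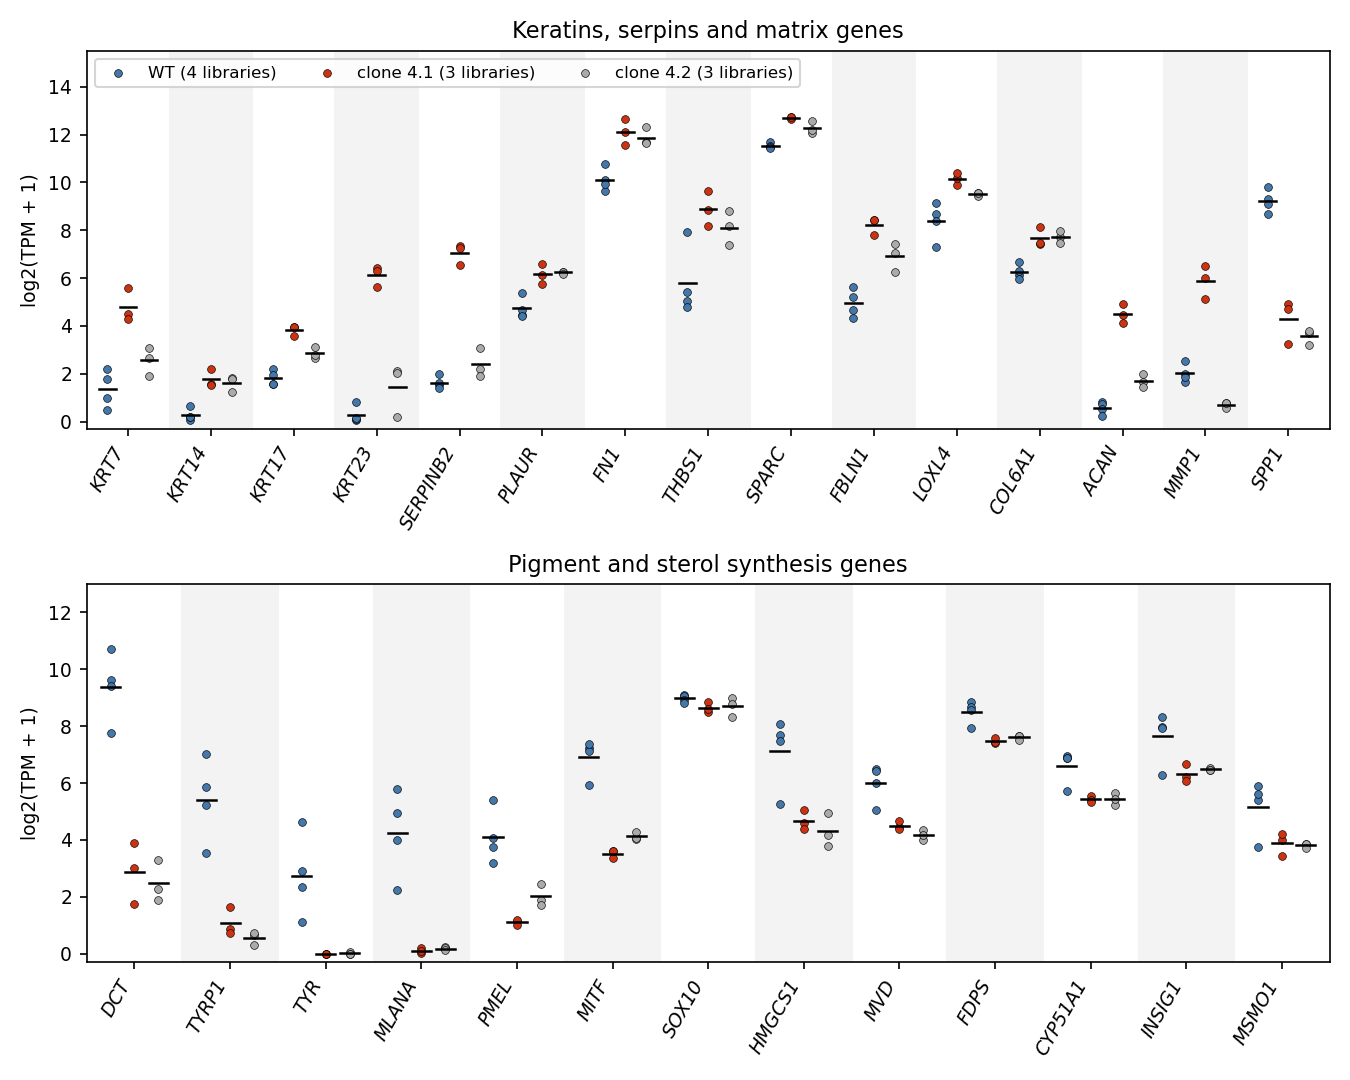
Levels as log2(TPM + 1) in WT (4 libraries), clone 4.1 (3) and clone 4.2 (3), with keratin, serpin and matrix genes above and pigment and sterol genes below. Each point is a library and each bar a group mean. FN1 is above WT in the 3 clone 4.1 libraries (3018 to 6468 TPM against 798 to 1730 TPM), and the low point of WT in HMGCS1 is library 3 (37.5 TPM).

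The ID genes encode helix-loop-helix proteins that lack a DNA-binding region and block E-box factors, and they are targets of BMP signals. ID3 was 6.97, 4.03, 4.25 and 3.65 TPM in WT and 89, 105 and 106 TPM in clone 4.1, a rise of 4.17 (limma adjusted p = 0.000257). ID1 was 6.94, 4.06, 7.48 and 1.99 TPM in WT and 48.5, 47.2 and 67.5 TPM in clone 4.1, a rise of 3.28 (adjusted p = 0.00187), and ID2 rose by 1.69 (adjusted p = 0.00276). ID4 was 16.8, 19.2, 10.7 and 12.8 TPM in WT and 7.49, 4.42 and 6.28 TPM in clone 4.1 and was not called (-1.16, adjusted p = 0.112). The ligand BMP2 rose by 2.87 (adjusted p = 5.12e-05) and was also higher than in clone 4.2 (1.98, adjusted p = 0.00526). GDF15, a stress-induced member of the same ligand family, fell from 1805, 1850, 628 and 2476 TPM to 295, 240 and 518 TPM (adjusted p = 0.00975). Without clone 4.1 library 2 its adjusted p was 0.051. No tested BMP receptor (4), SMAD (4) or BMP antagonist (7) was called, and over the 28 tested ID and BMP genes 4 rose and 1 fell. Among TGF-beta and activin genes 4 of 28 rose and 0 fell, with TGFB1, the ligand, at 1.13 and INHBB, an activin chain, at 2.83.

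Of 42 tested Wnt genes 7 rose and 1 fell (median 0.23). Those that rose were 3 of 9 ligands, 3 of 6 antagonists, 1 of 13 nuclear effectors and targets and 0 of 14 receptors, and a difference between these roles was not tested. SFRP2, a secreted Wnt binder, was 6.24, 4.24, 2.79 and 1.79 TPM in WT, 55.2, 33.9 and 51.3 TPM in clone 4.1 and 7.81, 2.55 and 4.14 TPM in clone 4.2. It rose by 3.39 over WT (limma adjusted p = 2.42e-07) and by 3.11 over clone 4.2 (adjusted p = 3.29e-06). WNT5A, a ligand of beta-catenin-independent signals, rose by 2.10, WNT9A by 2.09, WNT7B by 1.90 and the antagonist DKK3 by 1.37. WNT7B was at most 0.034 TPM in WT and 2.43, 5.93 and 1.32 TPM in clone 4.1, against at most 0.14 TPM in clone 4.2. CTNNB1, beta-catenin (chromosome 3), was the member that fell, from 403, 417, 245 and 424 TPM to 159, 163 and 144 TPM (-1.23, adjusted p = 0.000435).

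Among 49 tested genes of axon guidance 7 rose, 4 fell and 38 were not called. Slits, netrins and their receptors rose in 4 of 8 cases, with SLIT1 from at most 0.522 TPM to 6.43, 3.24 and 5.55 TPM (2.23, limma adjusted p = 7.71e-08) and at most 0.085 TPM in clone 4.2. The ligand SLIT2, the receptor ROBO4 and the ligand NTN1 rose by 2.05, 3.59 and 1.61. EFNB2, an ephrin, and the receptors EPHB2 and EPHA4 rose by 1.73, 1.66 and 1.44. The semaphorin receptors PLXNC1, PLXND1 and NRP2 and the ligand SEMA3E fell by 1.83, 1.61, 1.2 and 1.53 on the log2 scale. SEMA3E was not called without WT library 1, 2 or 4 or clone 4.1 library 1 or 2 (adjusted p = 0.0568 to 0.098).

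Of the growth factor genes, 13.6% of tested receptor tyrosine kinases and 17.9% of tested ligands were called, against 7.57% of all tested genes. Of 22 tested receptor tyrosine kinases 3 rose and 0 fell, FLT1, a VEGF receptor, by 1.8, FGFR1 by 1.29 and EGFR by 1.12. The FLT1 call was lost without WT library 4 (1.55, adjusted p = 0.0548) and without clone 4.1 library 1 (1.53, adjusted p = 0.0855), and the EGFR call without clone 4.1 library 1 (0.98, adjusted p = 0.061). Of 28 tested growth factor ligands 3 rose, PDGFB, AREG and NRG1, by 2.41, 2.12 and 1.79, and 2 fell. MYC, a transcription factor of growth, was 13.9, 16.7, 12.7 and 18.5 TPM in WT and 3.98, 3.42 and 3.36 TPM in clone 4.1 (-1.83, limma adjusted p = 0.000915). IGFBP3, which binds insulin-like growth factors, was 184, 166, 185 and 53.4 TPM in WT and 1036, 1622 and 981 TPM in clone 4.1 (3.15, limma adjusted p = 0.00338). CDKN1C, a cyclin-dependent kinase inhibitor, was 4.75, 3.85, 5.51 and 2.71 TPM in WT and 46.2, 40 and 26.1 TPM in clone 4.1 (2.88, adjusted p = 0.000175). TNFRSF11B, osteoprotegerin, a decoy receptor of the TNF family, was 1.89, 1.81, 2.24 and 0.306 TPM in WT and 20.5, 29.5 and 25 TPM in clone 4.1 (3.41, adjusted p = 0.00216). All 3 clone libraries lay outside the WT range for each of these 4 genes.

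Nerve-sheath genes showed no common direction, with 2 of 16 higher and 1 lower. EGR2, a myelination factor, rose by 1.66, and MBP, a myelin protein, fell from 125, 107, 43 and 129 TPM to 28.6, 14.5 and 27.8 TPM (-1.99, adjusted p = 0.0217). MBP was not called without WT library 1 or 4 or clone 4.1 library 2 (adjusted p = 0.056 to 0.102). Among neural crest factors, SOX8, the relative of SOX10, went from at most 0.15 TPM to 16.5, 12.1 and 16.7 TPM (3.86, adjusted p = 2e-05). TFAP2A, a factor of the neural crest and epidermis, fell from 88.3, 86.8, 51.5 and 111 TPM to 19.1, 14 and 20.8 TPM (-2.14, adjusted p = 1.56e-05).

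S100 proteins are small calcium-binding proteins, some of them secreted, and 5 of 15 tested members rose while 0 fell (median 0.79). S100A4, a marker of motile mesenchymal cells, was 260, 280, 396 and 240 TPM in WT and 1500, 1543 and 1222 TPM in clone 4.1, a rise of 2.29 (limma adjusted p = 4.32e-05). S100A9, a subunit of calprotectin, rose by 2.36 and exceeded clone 4.2 by 2.29 (adjusted p = 0.00234). S100A2 rose by 3.06 with an overlap, since WT library 3 (20 TPM) exceeded clone library 3 (14.6 TPM). Without clone 4.1 library 2 S100A2 was not called (2.09, adjusted p = 0.0942), and the count was 3. Galectins bind galactose-containing sugars, and 3 of 7 rose while 1 fell. The near-identical copies LGALS7B and LGALS7 rose by 5.37 and 4.14, and LGALS3 fell from 493, 414, 243 and 866 TPM to 122, 107 and 98.3 TPM (-2.05, adjusted p = 0.00191). STRA6, the receptor for retinol-binding protein, was 0.555, 1.08, 1.53 and 0.095 TPM in WT and 45.3, 32.7 and 31.5 TPM in clone 4.1. It rose by 4.42 (limma adjusted p = 8.05e-05). Of 25 tested retinoid genes 2 rose and 0 fell, so 8% were called, near the 7.57% of all tested genes.

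Cholesterol synthesis was the metabolic list with the most members lower. Of 24 tested genes 10 fell and 0 rose, with a median of -0.98. The libraries did not overlap for 12 of the 24, against 36.9% of all tested genes. The summed level went from a mean of 2670 TPM to 1390 TPM. HMGCS1, an early synthase of the pathway, was 270, 208, 37.5 and 176 TPM in WT and 22.9, 19.8 and 32.5 TPM in clone 4.1 (-2.46, SE 0.63; limma adjusted p = 0.0094). WT library 3 was the lowest WT library and lay near the clone. MVD, INSIG1, MSMO1, CYP51A1, HSD17B7 and FDPS fell by 1.49, 1.32, 1.29, 1.18, 1.16 and 1.03 on the log2 scale. SREBF2, the transcription factor of the pathway, was not called (-0.62), and TM7SF2, a sterol reductase on chromosome 11, had a positive difference of 0.97. INSIG1 and MSMO1 were not called without WT library 1, 2 or 4 or clone 4.1 library 1 or 2, and FDPS not without WT library 1 or 2 or clone 4.1 library 1, with differences of -1.35 to -0.92. Without WT library 3 the count was 15 of 24, and without WT library 1 or WT library 2 it was 6. No sterol gene was called against clone 4.2 by limma, with 4 at an unadjusted p under 0.05.

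Cancer-testis genes, normally expressed in germ cells, rose in 12 of 37 tested members and fell in 1. In the GAGE, PAGE and XAGE families on the X chromosome 8 of 10 rose, against 2 of 17 MAGE genes. PAGE2 was 0, 0, 0.16 and 0 TPM in WT, 76, 68 and 91.8 TPM in clone 4.1 and 0, 0.287 and 0.16 TPM in clone 4.2. XAGE1A was 0.071, 0, 0 and 0 TPM in WT and 6.08, 6.68 and 6.02 TPM in clone 4.1. These were present in clone 4.1 and near 0 in WT and clone 4.2, with differences of 6.25 and 2.83 over WT (limma adjusted p = 5.12e-15 and 1.92e-11). GAGE12J, by contrast, was also present in clone 4.2 (1.98, 2.25 and 2.21 TPM), at 2.15, 2.41 and 4.23 TPM in clone 4.1 and listed at 0 in WT. Copies within each family are near-identical, so the division of reads between them is uncertain. Directly against clone 4.2, 8 of the 37 were higher and 1 lower. PRAME, an antigen used to mark melanoma, rose by 2.75, and CTAG1B, the antigen NY-ESO-1, fell from 1.01, 2.63, 1.68 and 5.36 TPM to 0.368, 0.539 and 0.419 TPM. Without WT library 4 the CTAG1B difference was -0.90, under the minimum. PRAME was also called higher than in clone 4.2, but not without clone 4.1 library 1 or 3 or clone 4.2 library 1 or 2.

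Several other genes were high in clone 4.1 and low in both WT and clone 4.2. WFDC2, a secreted protein with protease-inhibitor domains, was 1.6, 1.8, 0.914 and 0.848 TPM in WT, 114, 181 and 190 TPM in clone 4.1 and 1.34, 0.601 and 0.809 TPM in clone 4.2 (6.14 over WT, limma adjusted p = 5.51e-11). FDCSP, a small secreted peptide of follicular dendritic cells, was 0, 0, 0.33 and 0 TPM in WT, 61.7, 159 and 123 TPM in clone 4.1 and 1.69, 0.989 and 1.01 TPM in clone 4.2 (6.65 over WT, adjusted p = 3.06e-13). RAC2, a small GTPase of blood cells, went from at most 0.707 TPM to 29.8, 41.1 and 24.7 TPM, with at most 1.64 TPM in clone 4.2. APOC2, an activator of lipoprotein lipase, went from at most 0.29 TPM to 60.9, 42.9 and 48.3 TPM, with at most 0.114 TPM in clone 4.2. Of the 9 leukocyte markers, 8 were under 1 TPM in every library of WT and clone 4.1, among them the lymphocyte genes CD3D and MS4A1, listed at 0. The part of leukocytes in these values was not tested. In the opposite direction, ACTG2, a smooth muscle actin, EPGN, a ligand of the EGF receptor, and H19, an imprinted RNA, were lower than in clone 4.2 by 3.43, 2.73 and 3.12 on the log2 scale and not called against WT. Without clone 4.2 library 1 the H19 difference was -2.64 and not called (adjusted p = 0.054).

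A run of zinc finger genes on chromosome 19 was low or listed at 0 in clone 4.1. Such genes encode KRAB-type and related DNA-binding proteins, many of which repress mobile elements, and they lie in clusters of similar copies. From ZNF880 to ZNF816 (chromosome 19, 52369917 to 52962911, GRCh38, GENCODE 29), 12 of 13 tested protein-coding genes fell against WT and 12 fell against clone 4.2, with differences of -3.42 to -1.42 and a median of -2.18. ZNF83 was 12.6, 9.42, 9.57 and 13.3 TPM in WT, 0.079, 0.121 and 0.186 TPM in clone 4.1 and 10, 16 and 14.7 TPM in clone 4.2 (-3.42, SE 0.21; limma adjusted p = 2.35e-09). ZNF468 was 6.58, 7.04, 5.97 and 6.09 TPM in WT and 0 in each clone 4.1 library, and ZNF808, ZNF320 and ZNF888 were also listed at 0 there. ZNF880, at one edge, kept 4.81, 2.85 and 6.32 TPM against 13.6 to 15.3 TPM in WT. The exception, ZNF578, was under 0.15 TPM in WT. In clone 4.2 these 12 genes were -0.65 to 0.24 from WT and 0 were called. Beyond the edges, ZNF610 was under 0.14 TPM in clone 4.1 against 0.637 to 1.49 TPM in WT and was not called (-0.85, adjusted p = 0.0324), but was called against clone 4.2 (-1.07, adjusted p = 0.0356). That call was lost without any 1 of the 6 libraries of the 2 clones (adjusted p = 0.0511 to 0.115). On the opposite side ZNF160 was 8.75 to 11.5 TPM against 13.8 to 17.6 TPM in WT (adjusted p = 0.0506). Past ZNF160, ZNF415, ZNF347 and ZNF665 were listed at 0 in all 3 clone 4.1 libraries, from WT means of 0.092, 0.514 and 0.653 TPM, and were not called, so low transcripts were also seen outside the run. Over all chromosomes 41 of 457 tested ZNF and ZFP genes (8.97%) fell and 1 rose, while 4.37% of all tested genes fell. On chromosome 19 it was 32 of 224 (14.3%). Elsewhere it was 9 of 233 (3.86%), near the share of all tested genes, so a fall of the family outside chromosome 19 was not seen. Reads of similar zinc finger copies may be divided between them in uncertain ways, and the genomic state of the run was not measured.

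**Figure D3:**
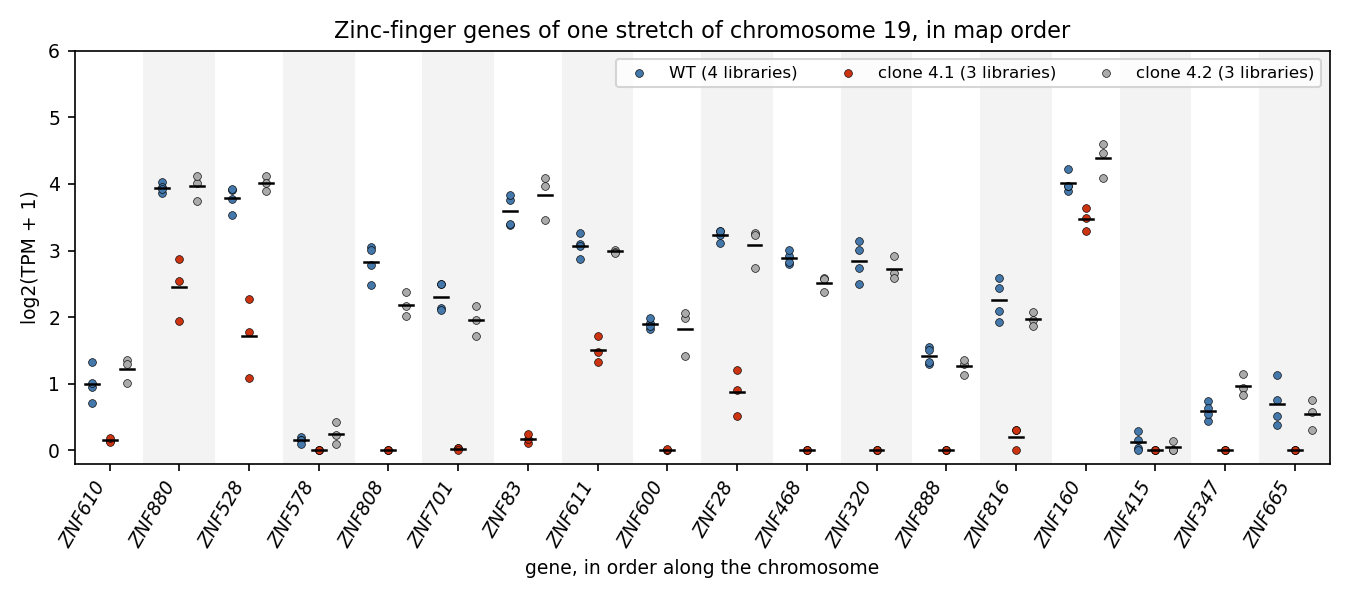
Levels as log2(TPM + 1) of zinc finger genes in map order from ZNF610 to ZNF665 in WT (4 libraries), clone 4.1 (3) and clone 4.2 (3). Points are libraries and bars are group means. From ZNF808 to ZNF816 most clone 4.1 points lie at or near 0, while clone 4.2 differs from WT by -0.65 to 0.24 over the called genes of the run.

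Whole chromosome stretches were shifted as well. On chromosome 16, 84.8% of 817 tested genes lay below 0 (median -0.46), with 91 lower and 13 higher calls, and clone 4.2 had a median of -0.28 there. Chromosome 3, which holds MITF and CTNNB1, had a median of -0.35 over 920 genes, with 62 lower and 9 higher calls, against -0.07 in clone 4.2. On chromosome 11 before 90 Mb, which holds SAA1, SAA2, SAA4 and TYR, 77.5% of 697 genes lay above 0 (median 0.37), with 59 higher and 7 lower calls, against a median of 0.01 in clone 4.2. FTH1, the ferritin heavy chain, in that stretch was 4130, 4260, 3716 and 4442 TPM in WT, 10240, 8388 and 8941 TPM in clone 4.1 and 3023, 2109 and 3618 TPM in clone 4.2, a rise of 1.15 over WT and 1.69 over clone 4.2 (limma adjusted p = 0.000679 and 6.6e-05). After 90 Mb the chromosome 11 median was 0.05. Chromosome 6 had medians of -0.33 before 40 Mb, -0.07 from 40 to 80 Mb and -0.40 after 80 Mb, against -0.40, -0.04 and -0.09 in clone 4.2. Chromosome 18 before 20 Mb had a median of -0.40 over 84 genes, with 14 lower and 0 higher calls, against -0.20 in clone 4.2. Chromosomes 3, 6, 11 and 16 held 339 of the 1270 called genes with a position (26.7%) and 20.8% of the tested genes. On the other chromosomes 430 genes were higher and 501 lower. Copy number was not measured, and its part in these shifts was not tested. With the median of each chromosome subtracted, 52.7% of the calls were higher.

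**Figure D4:**
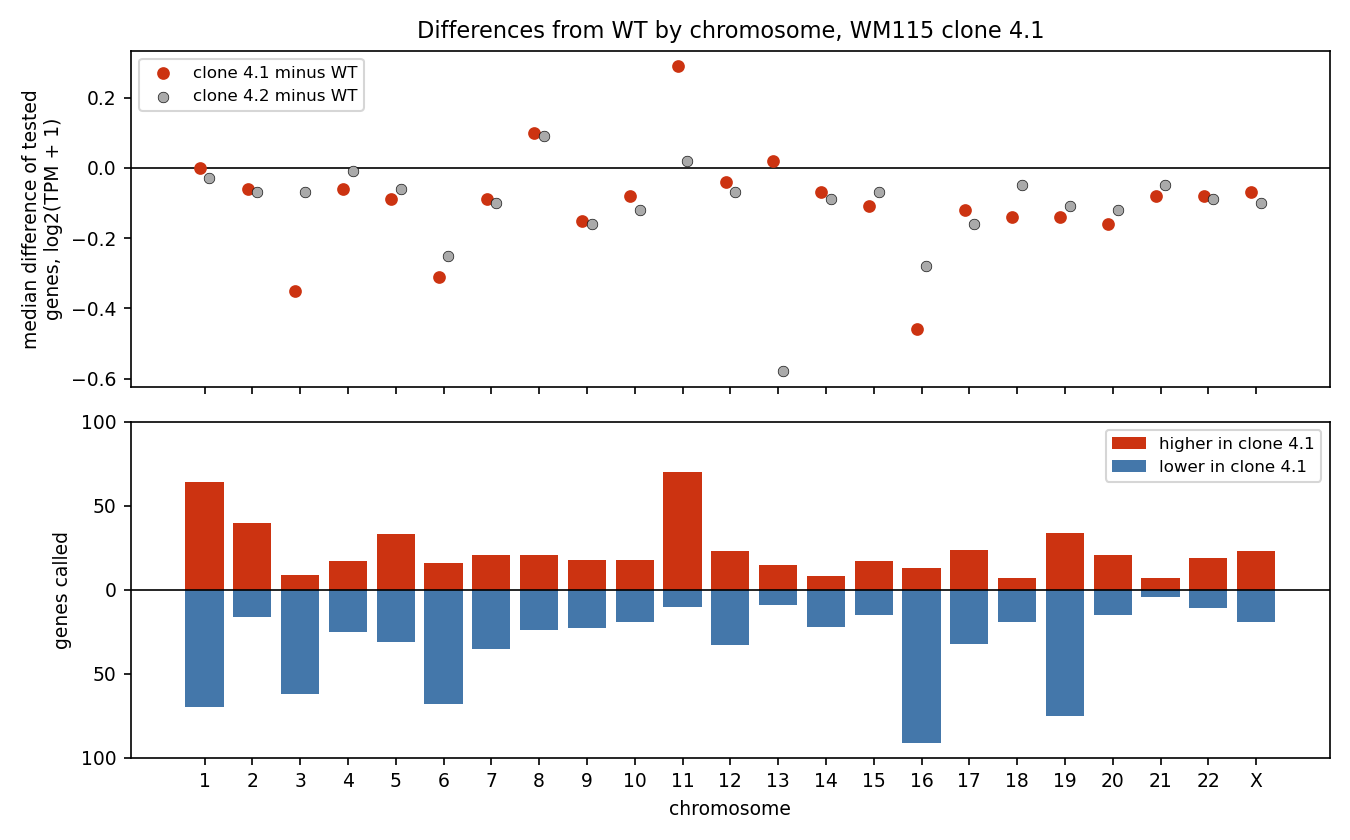
Upper panel, the median log2(TPM + 1) difference from WT of the tested genes of each chromosome, for clone 4.1 and clone 4.2. Lower panel, the number of genes called higher (up) and lower (down) in clone 4.1. Chromosome 16 has the lowest clone 4.1 median (-0.46) and chromosome 11 the highest (0.29), and both clones share the WT libraries.

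Around SOX10, 30 tested genes start within 500 kb, with a median of -0.07. Of these 6 were called, against 7.57% of all tested genes. CARD10, a scaffold of NF-kB signalling, CDC42EP1, a Cdc42 effector, and LGALS1, galectin 1, rose by 1.59, 1.23 and 1.19. In clone 4.2 these genes differed from WT by 2.02, 0.35 and 1.43. AL031587.1 and AL022322.1 were lower, with differences of -1.12 and -1.26, against -1.09 and -1.31 in clone 4.2. PLA2G6, a phospholipase, fell from 324, 377, 257 and 354 TPM to 40.4, 36.3 and 76.1 TPM (-2.73, limma adjusted p = 0.0132). Without clone 4.1 library 1 or 2 that adjusted p was 0.0523 or 0.0562. CARD10 was not called without WT library 1 or 4 or clone 4.1 library 1 or 2, nor LGALS1 without WT library 4 or clone 4.1 library 2. PLA2G6 in clone 4.2 was 19.4, 36.4 and 104 TPM, which did not differ from clone 4.1 beyond the spread (adjusted p = 0.93).

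Some lists had no call against WT. Of all tested genes 7.57% were called, so 0 calls in the shorter lists lies near that share. With no minimum difference, 24.2% of all tested genes had a limma adjusted p under 0.05. The share of all tested genes at an unadjusted p under 0.05 was not counted. By limma 0 of 12 tested EMT factors and cadherins were called (5 at an unadjusted p under 0.05), 0 of 16 AP-1 factors (8), 0 of 23 TEAD and YAP genes (7), 0 of 15 Notch genes (7), 0 of 37 HOX genes (16), 0 of 52 G2/M genes (6), 0 of 16 MHC class I genes (6) and 0 of 13 MHC class II genes (0). AXL, a receptor often high in melanoma cells low in MITF, was 44.6, 58.5, 144 and 33.8 TPM in WT and 128, 162 and 98.7 TPM in clone 4.1 and was not called (1.07, adjusted p = 0.0932). Of 44 S phase genes 1 fell. Nuclear-encoded subunits of oxidative phosphorylation gave 0 calls among 85 (29 at an unadjusted p under 0.05). Of 13 mitochondrially encoded subunits 3 fell (median -1.06), with 10 at an unadjusted limma p under 0.05 and 13 without overlap with WT. Of 82 cytosolic ribosomal proteins 2 rose, RPS3 and RPS13, both on chromosome 11. The median of that list was 0.51, with 65 at an unadjusted limma p under 0.05 and 70 without overlap with WT. Of all tested genes 36.9% did not overlap.

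**Figure D5:**
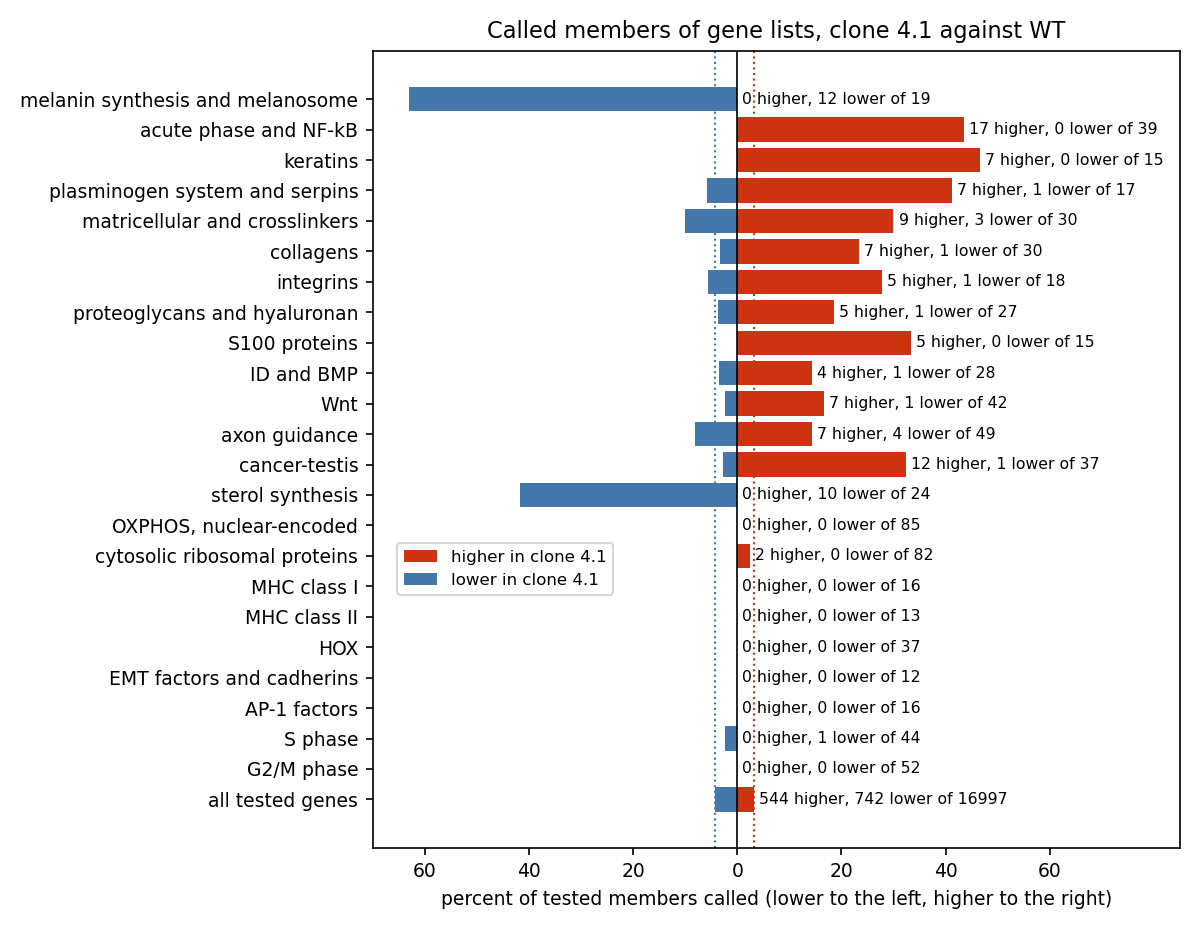
Share of the tested members of each list that were called higher (right) or lower (left) in clone 4.1 against WT, in percent, with counts printed beside the bars. Dotted lines mark the shares over all tested genes (3.2% higher and 4.37% lower).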

How the data were processed

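RNA abundance was measured in the 21 WM115 libraries, of which 10 are described here (4 WT, 3 of clone 4.1, 3 of clone 4.2), grouped by title and genotype label. Per the labels' protocols, total RNA was extracted with RNeasy columns, poly-A RNA was selected with oligo-dT and cDNA was primed with random hexamers. The values deposited by the authors are gene-level TPM. The submitters' processing notes name DRAGEN and GRCh38, with no version, and the strand setting of the counting is not given in the sources used here. Of the 60871 lines, 200 are identical repeats and were used once. A further 6 value columns could not be matched to a sample and stayed unused.

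log2(TPM + 1) was fitted with limma 3.58.1 (R 4.3.3), with 1 coefficient for each of the 6 WM115 groups, so that 21 libraries give the spread of each gene, with empirical Bayes moderation and a variance trend. Tests are two-sided with Benjamini-Hochberg adjustment over the 16997 tested genes. The calling was also run on simulated data for clone 4.1 against WT with 16997 genes. There 96 of 100 genes changed by a log2 of 2 and 97 of 100 changed by a log2 of 3 were recovered, with 6 false calls. These counts describe the simulated data only. They are no error rate for the calls in the real libraries, where single libraries stood apart and whole chromosome stretches were shifted. No counts are given, so depth and counting error are unknown.

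The gene lists and the genes described were chosen with earlier results of these data known. Named were the 20 largest rises and falls among called genes without overlap, up to 6 called members of each list in each direction, its 2 most abundant members not called, SOX10, MITF and the pigment genes, and the 10 largest differences in each direction from clone 4.2. Not all of them are printed, and results for some genes are not reported here. Other genes (such as SPARC, LCN2, NFKBIA, the genes near SOX10 and the zinc finger run) were added after their values were seen. Positions are from GENCODE 29 (GRCh38) for 58453 of 60671 identifiers. Alternatives changed the pseudocount, filter, scaling, variance model, groups fitted, replicate block and libraries.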

Additional observations from a re-analysis of the deposited data

Results flagged for a closer look

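In the 4 WT libraries 18 of 165 named genes had 1 library whose gap to the nearest other, as a share of the range, was above Dixon's 95% critical value for 4 samples. Chance gives about 1 in 20 for independent, normally spread values. TPM values need not be so spread, and a gene above 0 in only 1 WT library is always flagged. Many of the genes were also chosen by their differences, so 18 of 165 against 1 in 20 is a description and no test. Of the 18, 13 were in WT library 3. There THBS1 was 242.9 TPM against 26.99 to 41.47 TPM in the others, COL12A1 was 21.91 TPM against 9.845 to 10.66 TPM, and CARD10 was 12.9 TPM against 2.368 to 3.632 TPM. ACTG2 was 5.154 TPM against at most 0.584 TPM, KRT14 was 0.586 TPM against at most 0.133 TPM, and KRT23 was 0.753 TPM against at most 0.102 TPM. PDGFB was 2.087 TPM against at most 0.47 TPM and NRG1 was 0.994 TPM against at most 0.163 TPM. For these 8 genes WT library 3 was the highest WT library. It was the lowest for PPARGC1A, at 2.045 TPM against 15.54 to 16.85 TPM, for CTNNB1, at 244.6 TPM against 403.1 to 424 TPM, and for CYP51A1, at 51.83 TPM against 116.7 to 123.6 TPM. FDCSP (0.33 TPM) and PAGE2 (0.16 TPM) had a value above 0 there and were listed at 0 in the other WT libraries.

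WT library 4 was low for IL1B, at 14.72 TPM against 73.31 to 79.64 TPM, for WNT5A, at 4.736 TPM against 18.08 to 19.23 TPM, and for IGFBP3, at 53.42 TPM against 165.8 to 184.7 TPM. WT library 1 was high for COL6A2, at 108.2 TPM against 76.49 to 81.29 TPM, and had XAGE1A at 0.071 TPM against 0 in the others. All these values were kept in the main results above. Results without a library are given for some of the lists and genes whose calls changed.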

How the results depend on the processing

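The number of genes called against WT (1286) was 732 among genes with a mean TPM of at least 5, 655 with the replicate number as a block, 376 with clone 4.1 library 3 alone (the lone library assumed to vary like the other groups) and 4110 with no minimum difference. It was 1000 (without WT library 4) to 1502 (without WT library 3) with 1 library left out. Against clone 4.2 (447) these counts were 195, 288, 196 and 1148, and 297 (without clone 4.2 library 2) to 463 with 1 left out. The cause was not tested, beyond the smaller number of genes or samples in some of these. Same-numbered libraries of clone 4.1 and WT deviated with correlations of 0.043, -0.049 and -0.297, against -0.271 to 0.369 for libraries of different number. So few correlations cannot decide whether same-numbered libraries were handled together, and the block counts are given as an alternative only. The median of all genes (-0.10) was -0.12 with a pseudocount of 0.1, -0.00 with median-of-ratios scaling, -0.01 with quantile normalization and -0.14 after rescaling without mitochondrial and ribosomal protein genes. The share of calls that were higher was 55.6%, 54.5% and 38.6% under the last 3.

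With clone 4.1 library 3 alone, the members called in the direction the text gives numbered 1 of the melanin list, 6 acute phase, 4 keratin, 1 serpin, 1 matricellular, 1 collagen, 0 integrin, 2 proteoglycan, 2 S100, 2 ID and BMP, 3 Wnt, 3 axon guidance, 7 cancer-testis and 1 sterol gene. With the replicate block they numbered 7 melanin, 4 keratin, 4 serpin, 5 matricellular, 4 collagen, 1 integrin, 3 proteoglycan, 1 S100, 4 Wnt and 1 sterol gene. Among genes with a mean TPM of at least 5 there were 2 keratins, 3 proteoglycans, 3 S100, 3 Wnt, 2 axon guidance and 2 cancer-testis genes. With the mitochondrial split as a term there were 4 serpins, 3 collagens, 3 integrins, 3 proteoglycans and 3 S100 genes. With 1 library left out the counts were 9 to 13 for the melanin list and 13 to 19 for the acute phase list. They were 3 to 5 for collagens, 3 to 6 for integrins and 3 to 5 for proteoglycans. For S100 genes they were 3 to 5 and for sterol genes 6 to 15. The single-library and list-count alternatives were chosen after seeing the data.

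Of 139 named genes called, 111 were called without each library in turn and 44 under all 20 alternatives. None changed sign with a call.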
